A study of Arabidopsis thaliana with 12 samples.

Results

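FLC, its relatives FLM (also called MAF1), MAF2, MAF3, MAF4 and MAF5, and their partner SVP form a set of 7 Arabidopsis thaliana genes for MADS-box transcription factors that hold back flowering. The set was defined by gene identifier, with earlier results of these data known, and all 7 are among the 24775 identifiers in the RNA-seq files used here. Expression was measured in 9 libraries of 3 groups. The *met1* group was 3 libraries of young shoots from seedlings 2 weeks old with the met1-3 mutation, which removes the enzyme that maintains CG methylation. The *ddcc* group was 3 libraries of mature leaves from plants 5 weeks old that carry mutations in DRM1, DRM2, CMT2 and CMT3, the enzymes that methylate cytosines outside CG. The Col-0 group was 3 libraries of mature leaves from wild-type plants 5 weeks old. All lines were of the Columbia background and were grown at 22 °C with 16 h of light and 8 h of darkness. The labels name shoots and leaves, whereas the methods name the aerial part at both ages, with inflorescences removed from the older plants.

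In the plant, FLC, FLM, MAF2 to MAF4 and SVP bind DNA in shared complexes and repress FT and SOC1, genes that start flowering. FLC is switched on by FRI and silenced by prolonged cold through Polycomb proteins, while FLM and SVP act in the response to ambient temperature. The Columbia accession carries a non-functional FRI allele, and its FLC is known to be weakly expressed.

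MAF2 to MAF5 lie next to each other on chromosome 5, from 25982254 to 26002619 on the plus strand of TAIR10.1. MAF2 (AT5G65050), MAF3 (AT5G65060), MAF4 (AT5G65070) and MAF5 (AT5G65080) follow each other in this order. FLC (AT5G10140) is elsewhere on chromosome 5 (3173382 to 3179448, minus strand), FLM (AT1G77080) is on chromosome 1 (28955483 to 28960234, plus strand) and SVP (AT2G22540) is on chromosome 2 (9579647 to 9583901, plus strand). The first coding exon of each gene, which encodes the DNA-binding MADS domain, shows how alike the 4 clustered genes are and which pairs are closest. It is given below for these 4, from the RefSeq annotation of TAIR10.1 and the isoform with the longest coding sequence, with capitals for bases that differ from MAF2.
MAF2: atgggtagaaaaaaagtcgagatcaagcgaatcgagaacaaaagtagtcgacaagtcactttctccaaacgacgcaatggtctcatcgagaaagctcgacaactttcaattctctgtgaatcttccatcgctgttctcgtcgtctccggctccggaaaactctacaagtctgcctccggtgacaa
MAF3: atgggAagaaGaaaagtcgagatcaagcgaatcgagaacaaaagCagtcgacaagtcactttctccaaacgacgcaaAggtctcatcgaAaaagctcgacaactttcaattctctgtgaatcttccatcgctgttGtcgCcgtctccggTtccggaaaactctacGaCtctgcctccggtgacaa
MAF4: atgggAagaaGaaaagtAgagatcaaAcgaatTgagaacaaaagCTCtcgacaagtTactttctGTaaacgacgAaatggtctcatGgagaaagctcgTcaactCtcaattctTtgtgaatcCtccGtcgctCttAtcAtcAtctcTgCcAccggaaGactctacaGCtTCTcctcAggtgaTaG
MAF5: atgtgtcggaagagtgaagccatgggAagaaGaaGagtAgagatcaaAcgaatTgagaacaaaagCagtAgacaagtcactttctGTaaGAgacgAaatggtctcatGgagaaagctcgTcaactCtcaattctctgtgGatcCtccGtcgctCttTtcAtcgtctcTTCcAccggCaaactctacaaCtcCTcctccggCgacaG
The MAF2 exon spans chr5:25982415-25982599, the MAF3 exon chr5:25987527-25987711, the MAF4 exon chr5:25992310-25992494 and the MAF5 exon chr5:25997650-25997855, all on the plus strand. The MAF5 exon has 21 further bases at its 5′ end, which were left in lower case. MAF3 differs from MAF2 at 10 of 185 bases, MAF4 at 34 and MAF5 at 32, and MAF4 and MAF5 differ from each other at only 19. The cluster thus holds 2 pairs of close sequences, MAF2 with MAF3 (94.6% identity in this exon) and MAF4 with MAF5 (89.7%). In the same exon FLM was closest to MAF3 (92.4%), FLC to MAF2 (84.9%), and SVP was the most distant member (59.9% to 63.2% to the others).

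Reads of 150 bases were kept only at a mapping quality of at least 30, which sets aside reads that fit several genes alike. The longest identical exonic stretch between any pair of the 7 genes was 61 bases, shared by FLM and MAF3. The closest coding stretch of 150 bases, between MAF2 and MAF3, had 6 mismatches, and that between MAF4 and MAF5 had 12. How many reads were set aside for mapping to more than 1 member was not tested.

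The libraries held 10105057 to 13989374 reads on genes, of which 56.7% to 65.8% lay on plastid genes, leaving 3938275 to 5310477 reads on nuclear genes. Plastid reads took 64.4% to 65.8% of the *ddcc* libraries, against 57.8% to 59.6% of the Col-0 libraries. For levels, reads on each gene were therefore divided by the reads on nuclear genes and given per 1000000 of them (RPM). Of the mutated genes, DRM2 had 18, 34 and 9 reads in *ddcc* leaves, against 45, 79 and 78 reads in Col-0 leaves, and DRM1 had at most 1 read in any leaf library. CMT2, CMT3 and MET1 kept reads in the lines that carry their mutations (145 to 183 and 31 to 35 in *ddcc*, 260 to 447 in *met1*), so these genes did not check the labels. All 4 leaf markers were present in every library, with a summed level of 23586 to 24884 RPM in *met1* shoots, 18258 to 19078 in *ddcc* leaves and 8066 to 9026 in Col-0 leaves. The 6 floral markers summed to 1.65 to 3.20 RPM in *met1* shoots, 5.97 to 7.49 in *ddcc* leaves and 7.43 to 12.9 in Col-0 leaves, with AP1 and AP3 at 0 in *met1* and LFY at 0 in *ddcc*. The shoot meristem genes STM and KNAT1 were detected in every library and summed to 6.86 to 9.79 RPM in *met1* shoots, 24.6 to 29.3 in *ddcc* leaves and 16.0 to 30.8 in Col-0 leaves. The senescence markers SAG12 and SAG13 summed to 45.5 to 61.4 RPM in *met1* shoots, 98.0 to 144 in *ddcc* leaves and 147 to 195 in Col-0 leaves. The groups did not overlap in this sum, most of which was SAG13. SAG12 alone had 1, 0 and 26 reads in *met1* shoots, 4, 7 and 0 in *ddcc* leaves and 0, 0 and 1 in Col-0 leaves. In such bulk samples, fewer cells of a type and less RNA per cell cannot be told apart.

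FLC, the gene that prolonged cold silences, was nearly undetected in all 3 groups. It had 0, 0 and 3 reads in *met1* shoots, 1, 1 and 0 reads in *ddcc* leaves and 0, 0 and 1 read in Col-0 leaves. No library exceeded 3 reads, the number that a count of 0 still allows, so differences among counts this low were not detectable. A long noncoding RNA gene, AT5G01675, overlaps FLC on the opposite strand in TAIR10.1 and was not used here. Whether the counting used strand is not given in the sources used here, so the few FLC reads cannot be told apart from antisense reads.

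SVP was the most abundant member in every library. Its level was 45.3, 49.8 and 56.5 RPM in *met1* shoots, 90.2, 111 and 82.9 in *ddcc* leaves and 90.5, 96.6 and 108 in Col-0 leaves. The *met1* shoots were below all 6 leaf libraries, while *ddcc* and Col-0 leaves overlapped. Per length, SVP had 28.2 ± 3.15 reads per kilobase of exon per 1000000 nuclear reads (RPKM) in *met1* shoots, 52.9 ± 8.16 in *ddcc* leaves and 54.9 ± 4.97 in Col-0 leaves (SD, n = 3 each).

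FLM, which joins SVP in the temperature response, had 126, 105 and 179 reads in *met1* shoots, 128, 195 and 159 reads in *ddcc* leaves and 180, 235 and 293 reads in Col-0 leaves. MAF2, known to delay the response to short cold, had 109, 76 and 162 reads in *met1* shoots, 113, 115 and 122 reads in *ddcc* leaves and 122, 183 and 199 reads in Col-0 leaves. MAF3 had 48, 50 and 76 reads in *met1* shoots, 54, 59 and 56 reads in *ddcc* leaves and 65, 86 and 96 reads in Col-0 leaves. These 3 genes were thus read in every library at moderate levels, in each group with FLM first and MAF3 last by reads. By RPKM they lay close together: MAF3 had 8.41 ± 1.52, MAF2 7.13 ± 1.70 and FLM 6.43 ± 0.95 in *met1* shoots, MAF3 had 9.25 ± 0.331, FLM 8.56 ± 1.20 and MAF2 8.31 ± 0.755 in *ddcc* leaves, and MAF3 had 11.7 ± 1.36, FLM 10.97 ± 1.86 and MAF2 10.3 ± 1.73 in Col-0 leaves (SD, n = 3 each). Library ranges of neighbours in that order overlapped in all 3 groups, so MAF3, MAF2 and FLM were not separated.

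That order rested on the length used. The union of annotated exons is 4480 bases for FLM and 3384 for MAF2, against 1464 for MAF3, while their coding lengths are 888, 671 and 678 bases. Divided by coding length, FLM and MAF2 stood apart above MAF3 in each group (43.2 ± 6.06, 41.9 ± 3.81 and 19.97 ± 0.715 in *ddcc* leaves, and 55.3 ± 9.40, 52.0 ± 8.74 and 25.3 ± 2.95 in Col-0 leaves). SVP stayed first and FLC last on either length.

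MAF4 and MAF5 set the *met1* shoots apart. MAF4 had 13, 18 and 18 reads in *met1* shoots, 2, 2 and 2 reads in *ddcc* leaves and 1, 3 and 5 reads in Col-0 leaves. MAF5 had 18, 19 and 26 reads in *met1* shoots, 0, 3 and 0 reads in *ddcc* leaves and 0, 3 and 7 reads in Col-0 leaves. For both genes every *met1* library lay above all 6 leaf libraries, and *ddcc* and Col-0 leaves overlapped. In RPM, MAF4 had 3.55 ± 0.951 in *met1* shoots, 0.482 ± 0.0358 in *ddcc* leaves and 0.610 ± 0.381 in Col-0 leaves, and MAF5 had 4.48 ± 0.658, 0.220 ± 0.382 and 0.665 ± 0.697 in the same groups (SD, n = 3 each).

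**Figure D1:**
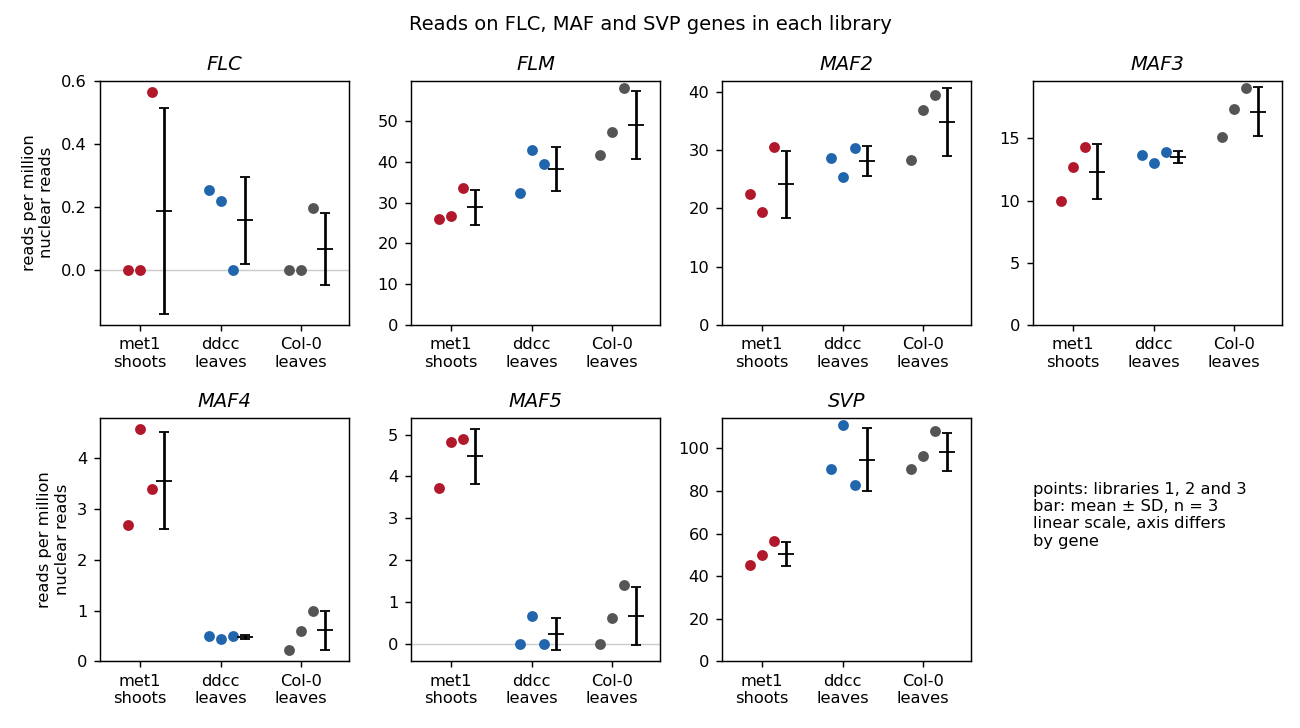
Level of each gene in RPM (linear vertical axes that differ by gene) in the 3 libraries of *met1* shoots, *ddcc* leaves and Col-0 leaves, as points, with bars for the mean ± SD. MAF4 and MAF5 are high in the 3 *met1* libraries, SVP is lower there than in all 6 leaf libraries, and FLC never exceeds 0.565.

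Pooling the 3 libraries of each group, the MAF4 level in *met1* shoots was 7.25 times that in *ddcc* leaves (49 against 6 reads, 95% exact interval 3.10 to 20.7) and 5.53 times that in Col-0 leaves (49 against 9 reads, 2.69 to 12.8). For MAF5 the ratio was 18.6 to *ddcc* leaves (63 against 3 reads, 6.09 to 92.8) and 6.40 to Col-0 leaves (63 against 10 reads, 3.26 to 14.0). All 3 MAF5 reads of the *ddcc* group came from replicate 2, without which no ratio can be given, and without Col-0 replicate 3 the ratio to Col-0 was 13.8. The intervals come from the binomial split of the reads and cover counting error only. SVP was lower in *met1* shoots, with a ratio of 0.532 to *ddcc* leaves (0.484 to 0.584) and 0.514 to Col-0 leaves (0.469 to 0.563). FLM, MAF2 and MAF3 were at 0.755, 0.880 and 0.914 times the *ddcc* level, with overlapping libraries. They were at 0.588, 0.699 and 0.715 times the Col-0 level. Every *met1* library was below every Col-0 library for FLM and MAF3, and the libraries overlapped for MAF2. The share of all genes below Col-0 alone was not counted. It is at least the 35.3% that lay below all 6 leaf libraries, where FLM, MAF2 and MAF3 overlapped. With all reads on genes as the denominator, MAF4 and MAF5 remained above and SVP below all 6 leaf libraries.

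No test was made between *met1* shoots and leaves. The groups come from tables normalized separately, and genotype, age and, by the labels, organ differ together, so that none of the 3 can be told apart. Groups of libraries often separated in this contrast: of 17985 genes with at least 10 reads in at least 3 libraries, 18.8% lay above all 6 leaf libraries in *met1*, 35.3% lay below, and 54.1% did not overlap either way. SVP, with over 10 reads in all 9 libraries, was among those below. MAF4 and MAF5 reached 10 reads in 0 leaf libraries and so met this filter only through the *met1* shoots where they are high, and nothing is read from counting them.

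A ratio within a library does not depend on how libraries were scaled. Of the reads on the MAF2 to MAF5 cluster, MAF4 and MAF5 together took 16.5%, 22.7% and 15.6% in *met1* shoots, 1.18%, 2.79% and 1.11% in *ddcc* leaves and 0.532%, 2.18% and 3.91% in Col-0 leaves. The lowest *met1* share was 44 of 282 reads (95% Clopper-Pearson interval 11.6% to 20.4%). The highest leaf share was 12 of 307 reads (2.04% to 6.73%). These intervals cover counting error within a library and do not compare the groups. The share restates the MAF4 and MAF5 reads given above, and the groups were not tested. The mean share was 18.3% ± 3.87 in *met1* shoots, 1.70% ± 0.951 in *ddcc* leaves and 2.21% ± 1.69 in Col-0 leaves (SD, n = 3 each). The *met1* shoots thus drew on all 4 genes of the cluster, while the leaf libraries drew almost wholly on MAF2 and MAF3, the pair shown above to be the closest in sequence.

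**Figure D2:**
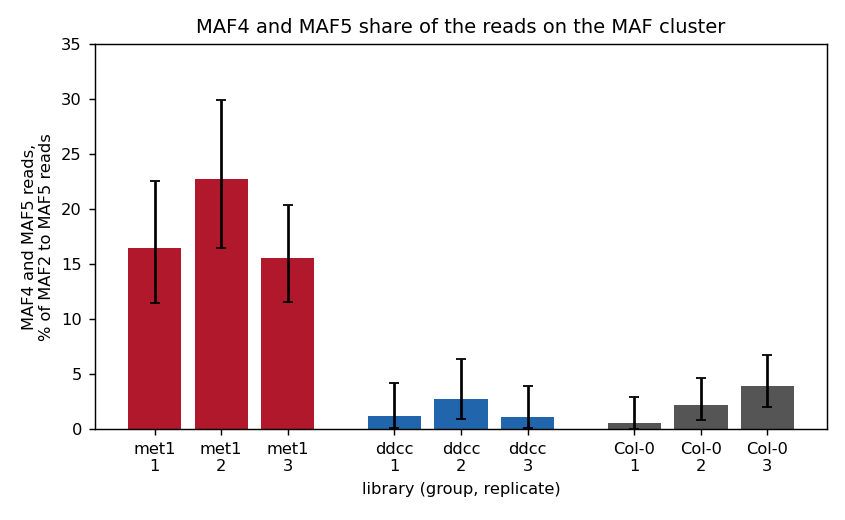
Reads on MAF4 and MAF5 as a percentage of the reads on MAF2 to MAF5 (vertical axis, from 0) in each of 9 libraries, with 95% Clopper-Pearson intervals that cover counting error only. The 3 *met1* bars lie between 15.6% and 22.7%, above all *ddcc* and Col-0 bars, of which the highest is 3.91%.

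All 7 genes together held 124 ± 17.7 RPM in *met1* shoots, 176 ± 15.7 in *ddcc* leaves and 201 ± 25.8 in Col-0 leaves. SVP took 40.9% ± 1.5 of these reads in *met1* shoots, 53.8% ± 3.93 in *ddcc* leaves and 49.1% ± 2.06 in Col-0 leaves. FLM took a like share in all 3 groups (23.2% ± 0.533, 21.8% ± 2.07 and 24.4% ± 1.06, SD, n = 3 each).

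The comparison of *ddcc* with Col-0 leaves asked whether non-CG methylation bears on these repressors in plants of the same age and organ. No member that could be tested was called. FLM, MAF2, MAF3 and SVP passed the filter on low reads, and 0 of the 4 were called. A call needed an adjusted p under 0.01 and a log2 fold change beyond 1 in either direction, which 5.06% of 17005 genes met (663 or 3.9% higher and 198 or 1.16% lower in *ddcc*). At an adjusted p under 0.05 with no fold threshold 0 of the 4 passed, against 21.4% of all genes (13% higher and 8.32% lower in *ddcc*), and 0 had an unadjusted p under 0.05. FLC, MAF4 and MAF5 had too few reads and were not tested. The test was limma with Benjamini-Hochberg adjustment over all genes. Nothing in the sources says that replicates were separate plants, so p-values measure the spread between these samples, which may be technical.

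FLM had 154, 191 and 176 normalised reads (recovered reads over the size factor of that library) in *ddcc* leaves, against 189, 204 and 239 in Col-0 leaves. The groups overlapped at a single pair of libraries, and the log2 fold change was -0.28 (SE 0.135, 95% interval -0.58 to 0.02, limma with Benjamini-Hochberg adjusted p = 0.17). MAF2 had 136, 113 and 135 normalised reads in *ddcc* leaves, against 128, 159 and 162 in Col-0 leaves. Here too the groups overlapped, with a log2 fold change of -0.23 (SE 0.145, 95% interval -0.55 to 0.10, limma adjusted p = 0.29). MAF3 had 64.8, 57.8 and 61.9 normalised reads in *ddcc* leaves, against 68.1, 74.8 and 78.3 in Col-0 leaves. All *ddcc* libraries lay below all Col-0 libraries, which 19.4% of all genes did (40.6% did not overlap in either direction), and the log2 fold change of -0.26 did not pass the test (SE 0.153, 95% interval -0.60 to 0.08, limma adjusted p = 0.25). SVP had 427, 494 and 368 normalised reads in *ddcc* leaves, against 409, 416 and 444 in Col-0 leaves. The *ddcc* libraries spanned the whole Col-0 range, and the log2 fold change was 0.01 (SE 0.119, 95% interval -0.25 to 0.28, limma adjusted p = 0.95).

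The 3 MAF-type genes thus had similar negative estimates that did not pass the test, and SVP was near 0. Their intervals reached -0.60 at the lowest and 0.28 at the highest, short of a log2 fold change of 1 in either direction. The median over the 4 tested members was -0.24, and over all genes tested it was -0.03. With each library scaled by its total reads the median of all genes shifted to -0.35, and FLM, MAF2 and MAF3 were then at -0.60, -0.55 and -0.58 (limma adjusted p = 0.011, 0.016 and 0.017), so that 3 of the 4 met an adjusted p under 0.05, and SVP was at -0.31. That scaling also turned the split of calls over all genes, which was 440 higher and 787 lower in *ddcc*, and scaling by nuclear reads gave 599 higher and 300 lower. Of the 4 leaf markers, 3 were called higher in *ddcc* leaves (RBCS1A, CA1 and LHCB1.3), and the share of plastid reads was higher there. The summed senescence markers were lower by RPM. SAG13, most of that sum, overlapped in normalised reads and was not called (log2 fold change -0.43, limma adjusted p = 0.072). The part of each in the members' values was not tested.

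**Figure D3:**
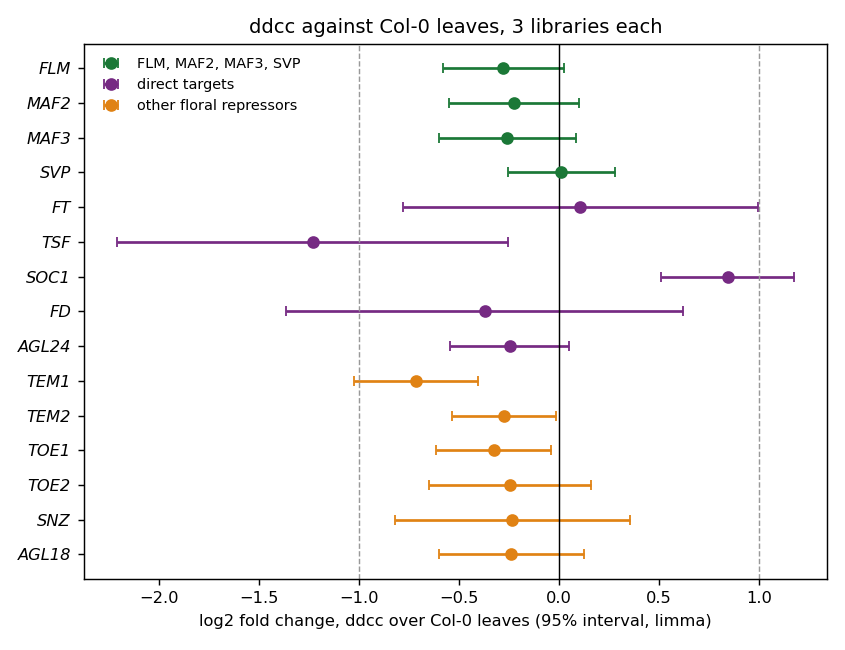
Log2 fold change of *ddcc* over Col-0 leaves (horizontal axis, 3 libraries each) with its 95% interval from limma, for the 4 tested repressors, the tested direct targets and other tested floral repressors; dashed lines mark a log2 fold change of 1 in each direction. FLM, MAF2, MAF3 and SVP have intervals that include 0, SOC1 lies at 0.84, TEM1 at -0.71 and TSF at -1.23 with a wide interval.

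Of 8 genes listed as direct targets of these repressors, 5 could be tested and 0 were called. FT, the mobile flowering signal made in leaves, had 15, 18 and 7 reads in *met1* shoots, 11, 10 and 9 reads in *ddcc* leaves and 10, 7 and 19 reads in Col-0 leaves. All 3 groups overlapped, and FT had a log2 fold change of 0.11 in *ddcc* (SE 0.397, limma adjusted p = 0.87). SOC1, a MADS-box activator of flowering, had 62, 55 and 77 reads in *met1* shoots, 215, 251 and 181 reads in *ddcc* leaves and 134, 127 and 172 reads in Col-0 leaves. By level the *met1* shoots were lowest and the *ddcc* leaves highest with no overlap, and the *ddcc* leaves were 0.84 higher than Col-0 on the log2 scale (SE 0.148, limma adjusted p = 0.0036), which passed the p threshold and missed the fold threshold. This was the only direct target at an adjusted p under 0.05, a rule that 13% of all genes met as higher in *ddcc*. Over all genes tested, 21.1% had every *ddcc* library above every Col-0 library.

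TSF, the closest relative of FT, had 0, 1 and 0 reads in *met1* shoots, 6, 10 and 9 reads in *ddcc* leaves and 10, 38 and 38 reads in Col-0 leaves. The *ddcc* leaves lay below the Col-0 leaves, as 19.4% of all genes tested did, with Col-0 replicate 1 far under the other Col-0 libraries. The log2 fold change was -1.23 (SE 0.436, limma adjusted p = 0.072). Without Col-0 replicate 1 it was -1.74 and was called (limma adjusted p = 0.0057). FD, the partner of FT at the shoot tip, had at most 15 reads in any library and a log2 fold change of -0.37 (SE 0.443, limma adjusted p = 0.58). AGL24, a relative of SVP that promotes flowering, was at -0.25 (SE 0.133, limma adjusted p = 0.21). SPL15, which promotes flowering with age, was not tested and had 11, 15 and 12 reads in *met1* shoots, 1, 1 and 1 reads in *ddcc* leaves and 0, 1 and 0 reads in Col-0 leaves.

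Among 11 other floral repressors, 6 could be tested and 0 were called. All 6 had a negative log2 fold change, with a median of -0.26, and 8915 of all 17005 genes tested were negative too. TEM1, a direct repressor of FT, had 198, 129 and 222 reads in *met1* shoots, 314, 309 and 239 reads in *ddcc* leaves and 493, 644 and 565 reads in Col-0 leaves. It was lower in every *ddcc* library than in all Col-0 libraries, as were 19.4% of all genes tested. Its log2 fold change of -0.71 (SE 0.139, limma adjusted p = 0.0063) missed the fold threshold. FWA, a gene silenced by CG methylation whose ectopic activity delays flowering, had 1992, 1638 and 2921 reads in *met1* shoots, 4, 2 and 2 reads in *ddcc* leaves and 0, 6 and 3 reads in Col-0 leaves. SMZ, an AP2-type repressor of FT, had 89, 77 and 95 reads in *met1* shoots, 5, 2 and 2 reads in *ddcc* leaves and 9, 4 and 8 reads in Col-0 leaves. FWA and SMZ resembled MAF4 and MAF5 in being high in *met1* shoots and nearly silent in both kinds of leaves, with the same limits of age and organ. They too had fewer than 10 reads in every leaf library, and nothing is read from counting them. The other repressors with enough reads went several ways by level. TOE2 and SNZ lay above all 6 leaf libraries in *met1*, TEM1 and TEM2 lay below, and TOE1 and AGL18 overlapped. Of 17985 genes, 18.8% lay above and 35.3% below, so nothing particular to these repressors is read from this.

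**Figure D4:**
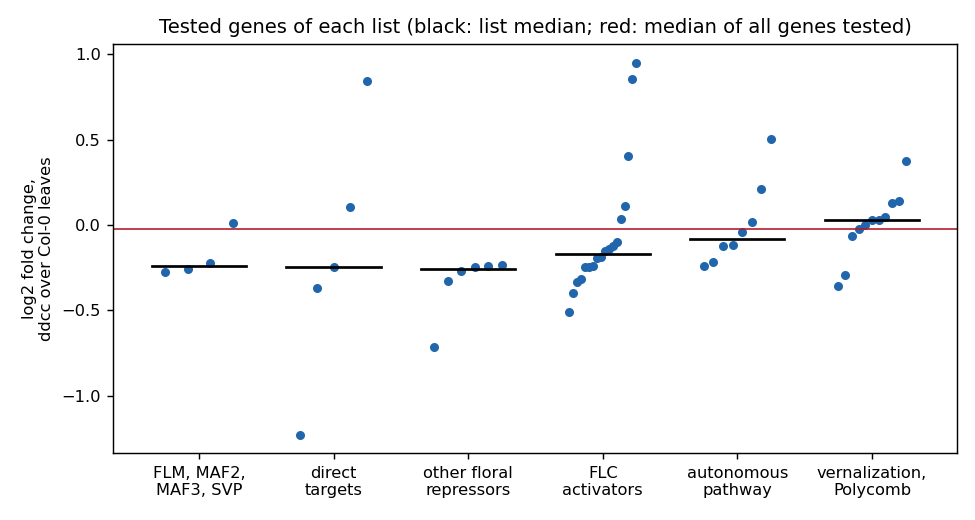
Log2 fold change of *ddcc* over Col-0 leaves (vertical axis) for each tested gene of the 6 lists on the horizontal axis, as points in rising order within a list. Black lines mark the list medians, from -0.26 for other floral repressors to 0.03 for vernalization and Polycomb genes, and the red line marks the median of all genes tested, -0.03.

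Genes that set FLC expression were taken next. All 18 activators of FLC were tested and 0 were called, with a median log2 fold change of -0.17 in *ddcc* and 5 values above 0. Over all 17005 genes tested, 8090 values were above 0. ARP6, a subunit of the complex that exchanges a histone variant at FLC and MAF genes, was the only one at an adjusted p under 0.05 (log2 fold change 0.95, SE 0.285, limma adjusted p = 0.040). It missed that threshold in 5 of 13 alternatives, with total reads at 0.63 (limma adjusted p = 0.11) with nuclear reads at 0.88 (limma adjusted p = 0.055), and without *ddcc* replicate 2, *ddcc* replicate 3 or Col-0 replicate 2 at 0.76 to 0.81 (limma adjusted p = 0.13 to 0.14). FRI had 44, 49 and 68 reads in *met1* shoots, 39, 56 and 40 reads in *ddcc* leaves and 49, 72 and 73 reads in Col-0 leaves. These overlapped, and the log2 fold change in *ddcc* was -0.25 (SE 0.178, limma adjusted p = 0.34).

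All 8 genes of the autonomous pathway, which lowers FLC, were tested and 0 were called (median -0.08). Of them FPA, an RNA-binding protein that acts on FLC antisense transcripts, was at 0.50 (SE 0.111, limma adjusted p = 0.011), and with total reads as the scaling at 0.18 (limma adjusted p = 0.30). Without Col-0 replicate 2 it was at 0.47 (limma adjusted p = 0.054). Of 12 vernalization and Polycomb genes 11 were tested and 0 were called, with a median of 0.03 and values from -0.36 for MSI1 to 0.38 for CLF. VIN3 had no entry in any of the 9 libraries and could not be tested. Over the 5 lists together, 4 of 48 tested genes (8.33%) met an adjusted p under 0.05, namely SOC1, ARP6, FPA and TEM1, against 21.4% of all genes.

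The genes that flank the members in the files were examined for changes of a wider region. The nearest listed gene before MAF2, AT5G65040, lies 3814 bases away and had 8, 13 and 15 reads in *met1* shoots, 20, 30 and 55 reads in *ddcc* leaves and 59, 99 and 121 reads in Col-0 leaves. It was lower in *ddcc* leaves with a log2 fold change of -1.18 (SE 0.326, limma adjusted p = 0.030) that missed the p threshold of 0.01. BST1, 1262 bases after MAF5, had 8, 16 and 14 reads in *met1* shoots, 8, 5 and 5 reads in *ddcc* leaves and 0, 8 and 8 reads in Col-0 leaves and was not tested. By reads, AT5G65040 was thus lowest in *met1* shoots, while BST1 was not. Beside FLC, AT5G10150 was at 0.47 (SE 0.147, limma adjusted p = 0.046) and AT5G10110 at 0.15 (limma adjusted p = 0.71). The neighbours of FLM (AT1G77060 and AT1G77090) and of SVP (AT2G22530 and NET2D) ranged from -0.79 to 0.13, with limma adjusted p-values of 0.075 to 0.66.

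Patterns over the 9 libraries were compared after centring each gene's log2 level (RPM plus 1), using the root mean square difference between genes. Among the 6 members with enough reads, MAF2 and MAF3 were closest (0.16), followed by FLM with MAF3 and with MAF2 (0.19 each). MAF4 and MAF5 differed by 0.37 from each other and by 0.89 to 1.41 from the rest. Since MAF4 and MAF5 had enough reads only in *met1* shoots, their distance from the other members follows in part from how members were admitted. Of 17979 other genes, those most like each member were SKIP5 and GTA2 for FLM (0.08 each), TTN1 (0.05) and AT1G32260 (0.08) for MAF2, AT2G14285 and HPT1 for MAF3 (0.07 each), AT4G21770 and SUB for MAF4 (0.13 each), AT1G17850 and AT2G18940 for MAF5 (0.22 each), and AT3G20720 (0.07) and AT3G44690 (0.09) for SVP. The median difference to all these genes was 0.44 to 0.49 for FLM, MAF2, MAF3 and SVP, 0.96 for MAF4 and 1.19 for MAF5. These differences share libraries and depth and are a description only.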

How the data were processed

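RNA-seq was made with an Illumina TruSeq kit and paired reads of 150 bases. Per the methods and the submitters' processing notes, the authors trimmed reads (Fastp in the one, Trimmomatic in the other), mapped them to TAIR10 with HISAT2, kept a mapping quality of at least 30, counted reads per gene with HTSeq-count and normalized with DESeq2. Versions, the annotation and the strand setting are not given in the sources used here. Each deposited file holds log2 values, made from reads over a size factor with a pseudocount of 1 added. Undoing the log and dividing by the smallest positive value gave whole reads for 100% of values (largest deviation 8.2e-08). The 3 files labelled *met1* mature leaves were left out, since all 22607 genes they share with the Col-0 files held identical reads. The eChIP-seq, *mddcc* and other libraries of the study were not analysed here.

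The *ddcc* and Col-0 leaves were compared on the deposited log2 values with limma 3.58.1 (R 4.3.3; lmFit, eBayes with a trend, Benjamini-Hochberg adjustment over 17005 genes), for these 6 libraries without covariates. A gene entered with 15 reads in all and with at least 10 reads, rescaled to the median library, in 3 libraries or more. The fit was tested on simulated data. Calls followed the thresholds of the methods (adjusted p under 0.01, absolute log2 fold change over 1). RPKM used the union of TAIR10.1 exons and reads on nuclear genes. Alternatives were other scalings, filters, a pseudocount of 0.1, limma-voom on recovered reads, leaving out each library, a block for the replicate number, an adjusted p under 0.05, coding length, and all reads on genes as the denominator.

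Named were all 7 members, genes called in a list, FT, SOC1, TSF, FD, FRI, VIN3 and FWA, flanking genes and the 2 genes most like each member. The flanking genes are the nearest ones listed in the files, and list genes past an adjusted p of 0.05, SMZ, SPL15, AGL24, MSI1 and CLF were named after their values were seen. The members and lists were chosen with earlier results of these data known. Of 24775 identifiers 24461 matched the reference. Tables were made with Python 3.11.15, pandas 2.3.3 and Biopython 1.88. Intervals and the limit of 3 reads for a count of 0 are for counting error alone, because PCR copies were not told apart by molecular identifiers.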

Additional observations from a re-analysis of the deposited data

How the results depend on the processing

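No tested member was called under any alternative, though with total reads as the scaling FLM, MAF2 and MAF3 met an adjusted p under 0.05 in limma. These 3 stayed negative in all 13 fits, while SVP changed sign in 4 of them (-0.31 to 0.12). With each library left out, FLM ranged from -0.35 to -0.18, MAF2 from -0.33 to -0.14, MAF3 from -0.31 to -0.21 and SVP from -0.09 to 0.12. The count of calls over all genes was 861. It was 554 to 958 with 1 library left out (554 without *ddcc* replicate 2), 1227 with total reads as the scaling and 3634 at an adjusted p under 0.05. In the 5 flowering lists the count of 0 became 1 with total reads (TEM1, -1.04), 0 to 1 with a library left out (1 without Col-0 replicate 1, TSF), and 4 at an adjusted p under 0.05. With coding length 12 of 21 member ranks by group were kept, against 17 to 21 with a library left out. Levels themselves moved by more than the spread in 31 of 105 cases, all with coding length or all reads on genes as the denominator. Both choices change the unit of every level, so this count does not measure how stable the levels are.

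With the replicate number as a block, 1017 genes were called, and no member or list gene. Deviations of same-numbered *ddcc* and Col-0 libraries correlated at 0.213, 0.000849 and 0.0351. The first of these was the highest of any pair, while *ddcc* replicates 2 and 3 correlated best with another number. Because deviations were centred within groups of 3, these values cannot show whether same-numbered samples were handled together. Depth limits FLC, MAF4 and MAF5 in leaves: no leaf library had more than 1, 5 and 7 reads on them, and no difference between *ddcc* and Col-0 leaves was detectable there.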
